A study of Mus musculus with 7 samples.

Results

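The genes described here encode the Gq signalling route in lumbar dorsal root ganglia: the alpha subunits Gnaq, Gna11 and Gna14, the phospholipase C-beta enzymes Plcb1, Plcb3 and Plcb4, the IP3 receptors Itpr1 and Itpr3, and the protein kinase C isoforms Prkca and Prkce. These 10 genes were looked up by symbol, and each matched 1 of the 54309 genes in the deposited table. The set was chosen by the TPM values of Gnaq, which had been seen to differ strongly between the groups compared below. Their differences between these groups are therefore given as descriptions, without a test.

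The study asks how circadian time tunes axon regeneration, and it profiled RNA from L4-6 dorsal root ganglia, which hold the cell bodies of sensory neurons. All mice were labelled male, C57bl/6 and 6 to 8 weeks old, and all carried a sciatic nerve injury made 72 h before the ganglia were taken. There were 4 samples from mice injured and dissected at Zeitgeber time 20 (ZT20) and 3 from mice injured and dissected at ZT8, Zeitgeber time being counted in hours from lights on. The ganglia were dissociated with enzymes and enriched for neurons on an albumin gradient, with no uninjured group among the samples used here. Injury time and dissection time coincide within each group, and library names follow numbers at ZT20 and letters at ZT8, so neither can be told apart from the group. The labels do not say whether samples came from separate animals, so p-values measure the spread between these samples, which may be technical.

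Gq proteins are switched on by receptors for mediators such as bradykinin, histamine, serotonin, glutamate and proteases. The active alpha subunit stimulates phospholipase C-beta, which splits the membrane lipid PIP2 into IP3 and diacylglycerol. IP3 opens calcium channels on the endoplasmic reticulum, and diacylglycerol activates protein kinase C. In nociceptors this route is known for sensitizing channels such as Trpv1 and for driving responses to inflammatory mediators and itch-inducing compounds.

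Abundance was given as TPM, a transcript abundance scaled to the same total in every library, which corrects for transcript length, so levels can be compared between genes, but it keeps no record of sequencing depth. From 24192 to 25238 genes were above 0 TPM in the ZT20 libraries and from 18297 to 22973 at ZT8. ZT8 replicate 2 had the fewest genes and lay farthest out on the first principal component. ZT20 replicates 3 and 4, although labelled male, had a summed level of at most 0.0162 TPM over 4 Y-linked genes, against 33.1 to 84.6 TPM in the other 5 libraries. Xist, the RNA that coats a silenced X chromosome, was at 2.21 and 2.30 TPM in these samples and at 1.08 TPM in ZT20 replicate 2, the library with the Y-linked sum of 33.1 TPM, and at no more than 0.00467 TPM in the other 4. Summed markers of sensory neurons were at 18862 to 23784 TPM at ZT20 and 14325 to 21742 TPM at ZT8, and 0 of the 12 were at 0 in any library. Their mean log2(TPM + 1) stood at 10.03 ± 0.06 for ZT20 (SD, n = 4) against 9.55 ± 0.27 for ZT8 (SD, n = 3), lowest in ZT8 replicate 2 at 9.25. The difference of 0.48 had a two-sided p = 0.0286 in an exact permutation over 35 splits, which allow no smaller value, and p = 0.143 after adjustment over 10 marker lists. Of the 12 genes, 3 were called higher at ZT20 by limma. Nociceptor markers differed by 0.48 with the same p-values (4 of 8 called higher), and the other 8 lists, for large neurons, glia, immune, connective, vascular and red blood cells, had exact p-values of at least 0.143 before adjustment. Satellite glia markers summed to 7027 to 8523 TPM at ZT20 and 11853 to 14554 TPM at ZT8, and 2 of the 6 tested were called lower at ZT20 by limma, while their mean log2(TPM + 1) was 5.87 at ZT20 and 5.98 at ZT8. The summed markers of macrophages (134 to 196 against 197 to 457 TPM), of plasma and B cells (270 to 492 against 503 to 945 TPM) and of endothelium (101 to 115 against 133 to 189 TPM) were also lower at ZT20 without overlap. Their mean log2(TPM + 1) was lower at ZT20 for macrophages (3.92 against 4.22) and for plasma and B cells (3.27 against 4.07). For endothelium it was higher at ZT20 (2.04 against 1.82), opposite to the sum. The mean values of macrophages and endothelium overlapped between the groups. Of the 8 tested macrophage genes, limma called 1 higher and 1 lower. The part of these marker differences in the results below was not tested, and in bulk RNA fewer cells of a type and less RNA per cell cannot be told apart.

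Gnaq (ENSMUSG00000024639), the alpha subunit that gives Gq its name, was the member that differed most. Its level was 191, 238, 192 and 182 TPM across ZT20 replicates 1 to 4 and 54.7, 60.7 and 43.0 TPM in ZT8 replicates 1 to 3. Every ZT20 sample was above every ZT8 sample, and the lowest ZT20 value was well clear of the highest ZT8 value. The group means were 201 ± 25.2 TPM (SD, n = 4) against 52.8 ± 8.96 TPM (SD, n = 3), a 3.80-fold difference. On the log2(TPM + 1) scale the difference, ZT20 minus ZT8, was 1.91 with a standard error of 0.15, at percentile 99.4 of all tested genes, or 96.2 with a pseudocount of 0.1. In level, Gnaq moved from percentile 78.8 of the tested genes at ZT8 to percentile 93.3 at ZT20.

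Gna11 (ENSMUSG00000034781), the close relative of Gnaq that couples to the same receptors and enzymes, showed the next largest difference. It was at 99.6, 165, 92.0 and 95.5 TPM in the ZT20 replicates against 34.2, 50.6 and 31.2 TPM in ZT8 replicates 1 to 3. The groups did not overlap, and replicate 2 was the highest sample within each group for Gna11 and for Gnaq alike. The means were 113 ± 34.8 TPM (SD, n = 4) against 38.7 ± 10.5 TPM (SD, n = 3), a difference of 1.51 in log2 units (standard error 0.24). Across the 7 libraries, which share the group difference and their scaling, Pearson's r between Gnaq and Gna11 was 0.967.

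Gna14 (ENSMUSG00000024697), the third alpha subunit, did not share that difference. It was at 64.8, 65.1, 74.0 and 69.5 TPM in the ZT20 replicates against 63.4, 78.5 and 70.3 TPM in ZT8 replicates 1 to 3. The ZT20 values lay within the range of the ZT8 values. Its log2 difference was −0.05 with a standard error of 0.12, and its sign turned to 0.04 with a neuronal marker score as covariate, to 0.07 with array weights and to 0.03 without ZT8 replicate 2. Gna14 is the next protein-coding gene after Gnaq on chromosome 19 in RefSeq's gene table, and the differences of these neighbours lay at percentiles 99.4 (Gnaq) and 30.7 (Gna14) of all tested genes. Their levels crossed: at ZT8 Gna14 was the most abundant Gq-family alpha subunit in each of the 3 samples, and at ZT20 it was below both Gnaq and Gna11 in each of the 4.

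The make-up of the Gq family followed from this, and as a share within a sample it does not depend on the scaling between samples. Of the summed TPM of Gnaq, Gna11, Gna14 and Gna15, Gnaq held 53.4%, 50.5%, 53.3% and 52.0% in the ZT20 replicates and 34.8%, 32.0% and 29.6% in the ZT8 replicates. Gna14 held 18.1% ± 3.03 (SD, n = 4) in the ZT20 group and 43.3% ± 4.33 (SD, n = 3) in the ZT8 group, without overlap. Gna11 held 28.9% ± 4.18 (SD, n = 4) and 23.3% ± 2.93 (SD, n = 3), with overlapping ranges. Gna15, the family member known from blood cells, held at most 3.09% in any sample. The sum over the 4 genes was 384 ± 57.8 TPM at ZT20 (SD, n = 4) against 164 ± 22.9 TPM at ZT8 (SD, n = 3), a 2.34-fold difference, while the summed alpha subunits of the other families differed 1.61-fold. Gnaq made up 11.4% ± 1.16 (SD, n = 4) of all alpha subunit TPM at ZT20 and 5.30% ± 1.56 (SD, n = 3) at ZT8.

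**Figure D1:**
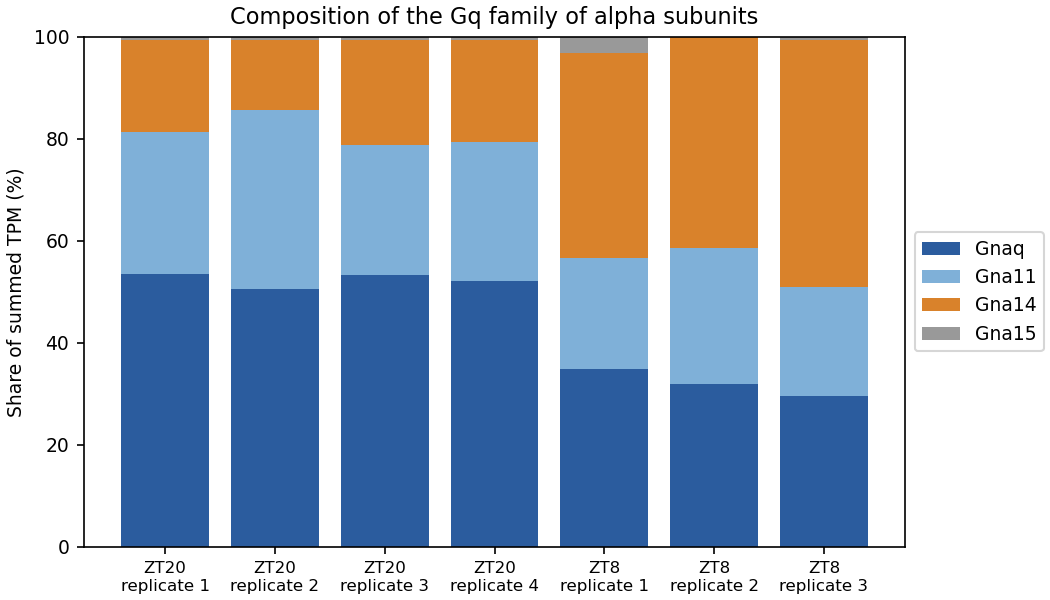
Share of the summed TPM of the 4 Gq-family alpha subunits (vertical axis, %) held by each gene in each of the 7 samples (horizontal axis). Gnaq holds 50.5% to 53.4% at ZT20 and 29.6% to 34.8% at ZT8, and Gna14 is the largest part in the ZT8 samples.

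The promoters of the alpha subunits are shown because their transcripts differed so unevenly, with that of Itpr3 added for its E-box, the element CACGTG through which clock factors can bind. RefSeq's promoter table (GRCm38.p6) matched 8 of the 10 members with 9 start sites, and Itpr1 and Prkce were not matched. Each sequence is the 250 bases before the start, 5′ to 3′ on the gene's strand, with capitals marking the GC box GGGCGG, read on both strands, and the E-box.
Gnaq, chr19:16132434-16132683, plus strand: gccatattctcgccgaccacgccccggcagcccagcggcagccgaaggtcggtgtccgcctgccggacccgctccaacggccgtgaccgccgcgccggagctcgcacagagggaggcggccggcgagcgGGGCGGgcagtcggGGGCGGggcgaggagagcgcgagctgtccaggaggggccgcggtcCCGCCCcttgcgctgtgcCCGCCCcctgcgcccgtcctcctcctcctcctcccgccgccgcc
Gna11, chr10:81545163-81545412, minus strand: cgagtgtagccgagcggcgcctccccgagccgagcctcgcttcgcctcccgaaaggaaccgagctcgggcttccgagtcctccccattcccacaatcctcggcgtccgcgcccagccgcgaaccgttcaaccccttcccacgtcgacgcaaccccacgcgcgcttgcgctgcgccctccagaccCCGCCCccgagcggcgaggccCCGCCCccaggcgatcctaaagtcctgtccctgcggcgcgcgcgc
Gna14, chr19:16435417-16435666, plus strand: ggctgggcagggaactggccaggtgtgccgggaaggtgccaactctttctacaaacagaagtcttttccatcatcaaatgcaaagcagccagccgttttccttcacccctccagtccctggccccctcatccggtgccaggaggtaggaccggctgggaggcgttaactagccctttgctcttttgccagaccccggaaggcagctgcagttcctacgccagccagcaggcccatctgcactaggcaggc
Itpr3, chr17:27057054-27057303, plus strand: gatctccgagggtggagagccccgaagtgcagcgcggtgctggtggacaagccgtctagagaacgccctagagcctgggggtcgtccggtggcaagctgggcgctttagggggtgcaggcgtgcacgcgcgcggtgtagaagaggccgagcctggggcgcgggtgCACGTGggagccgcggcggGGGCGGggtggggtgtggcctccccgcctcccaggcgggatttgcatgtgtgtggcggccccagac

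The Gnaq window held 4 GC boxes and the Gna11 window 2, and no GC box was found in that of Gna14. The windows of Plcb4 held 7 and 0, that of Plcb3 5, that of Prkca 2, and those of Plcb1 and Itpr3 1 each. The counts did not follow the log2 differences, which were 0.53 for Plcb4 and 0.73 for Plcb3, beside 1.91 for Gnaq. GGGCGG was present in 32.7% of the 32851 promoter windows in the table. The GC content was 79.2% for Gnaq, 73.2% for Gna11 and 60.0% for Gna14, with 37, 38 and 7 CpG dinucleotides. CACGTG was found in the Itpr3 window only, 85 bases before the start, among the 9 member windows, and in 6.02% of all windows. The cAMP response element TGACGTCA (1.55% of all windows) and the D-box TTATGTAA or TTACGTAA (0.931%) were found in 0 of the 9. These matches describe letters in a window and no binding was measured.

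Among the phospholipase C-beta enzymes, which Gq stimulates directly, Plcb3 (ENSMUSG00000024960) was by far the most abundant. It was at 156, 106, 187 and 156 TPM in the ZT20 replicates against 109, 74.4 and 86.1 TPM in ZT8 replicates 1 to 3. The groups overlapped because ZT20 replicate 2, the sample highest in Gnaq, was lower in Plcb3 than ZT8 replicate 1. The log2 difference was 0.73 with a standard error of 0.21. Plcb3 held 84.1% ± 2.48 (SD, n = 4) of the phospholipase C-beta TPM at ZT20 and 82.7% ± 1.44 (SD, n = 3) at ZT8, with overlapping ranges, and the sum over the family differed 1.65-fold.

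Plcb4 (ENSMUSG00000039943) was at 14.0, 14.8, 16.7 and 17.1 TPM at ZT20 and at 12.4, 9.99 and 9.28 TPM at ZT8, a difference of 0.53 in log2 units (standard error 0.17). Plcb1 (ENSMUSG00000051177) was at 11.2, 9.42, 10.9 and 12.9 TPM at ZT20 and at 7.34, 6.93 and 9.06 TPM at ZT8, a difference of 0.46 in log2 units (standard error 0.19). Neither of these neighbours on chromosome 2 overlapped between the groups, by a narrow margin in Plcb1. Plcb2, the isoform known from blood and taste cells, averaged 1.01 TPM at ZT20 and 0.219 TPM at ZT8 and was too low to be tested.

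Of the IP3 receptors, the calcium channels that IP3 opens, Itpr1 was near the middle of the tested genes in level and Itpr3 was lower. Their level percentiles were 48.5 and 27 at ZT20, and 43.2 and 18.4 at ZT8. Itpr1 (ENSMUSG00000030102) was at 9.22, 17.6, 9.11 and 14.5 TPM at ZT20 and at 6.57, 9.47 and 6.92 TPM at ZT8. It overlapped between the groups, since ZT8 replicate 2 was above ZT20 replicates 1 and 3. Its log2 difference was 0.62 with a standard error of 0.27. Itpr3 (ENSMUSG00000042644) was at 4.21, 3.26, 4.96 and 5.62 TPM at ZT20 and at 2.14, 2.12 and 2.75 TPM at ZT8, a difference of 0.71 in log2 units (standard error 0.24) with no overlap. Itpr1 took up 60.4% to 82.6% of the IP3 receptor TPM over the 7 samples, highest in replicate 2 of each group, and Itpr2 averaged 0.634 TPM at ZT20 and 0.398 TPM at ZT8.

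Among the protein kinase C isoforms, Prkce (ENSMUSG00000045038), an isoform that responds to diacylglycerol without calcium and is known for its part in nociceptor sensitization, had the larger difference of the pair described here. It was at 52.3, 64.7, 58.9 and 50.3 TPM at ZT20 and at 26.3, 14.2 and 36.1 TPM at ZT8, without overlap, a difference of 1.20 in log2 units (standard error 0.28). Prkca (ENSMUSG00000050965), a conventional isoform that needs calcium, was at 21.1, 22.8, 32.8 and 28.0 TPM at ZT20 and at 23.9, 9.53 and 14.8 TPM at ZT8. Prkca overlapped between the groups, because ZT8 replicate 1 was above ZT20 replicates 1 and 2, and its log2 difference was 0.74 with a standard error of 0.29. Without ZT8 replicate 2 it was 0.44. With the neuronal marker score as covariate the order turned, with Prkce at 0.56 (standard error 0.58) and Prkca at 0.75 (standard error 0.67). Both isoforms were lowest in ZT8 replicate 2, the library with the lowest neuronal marker score, and Pearson's r with that score over the 7 libraries was 0.963 for Prkce and 0.820 for Prkca. Over the other members it was 0.899 for Plcb1, 0.853 for Itpr3, 0.840 for Plcb3, 0.759 for Plcb4, 0.753 for Gnaq, 0.613 for Gna11, 0.364 for Itpr1 and −0.461 for Gna14. The score did not overlap between the groups, so each r also carries the group difference and the low score of ZT8 replicate 2.

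**Figure D2:**
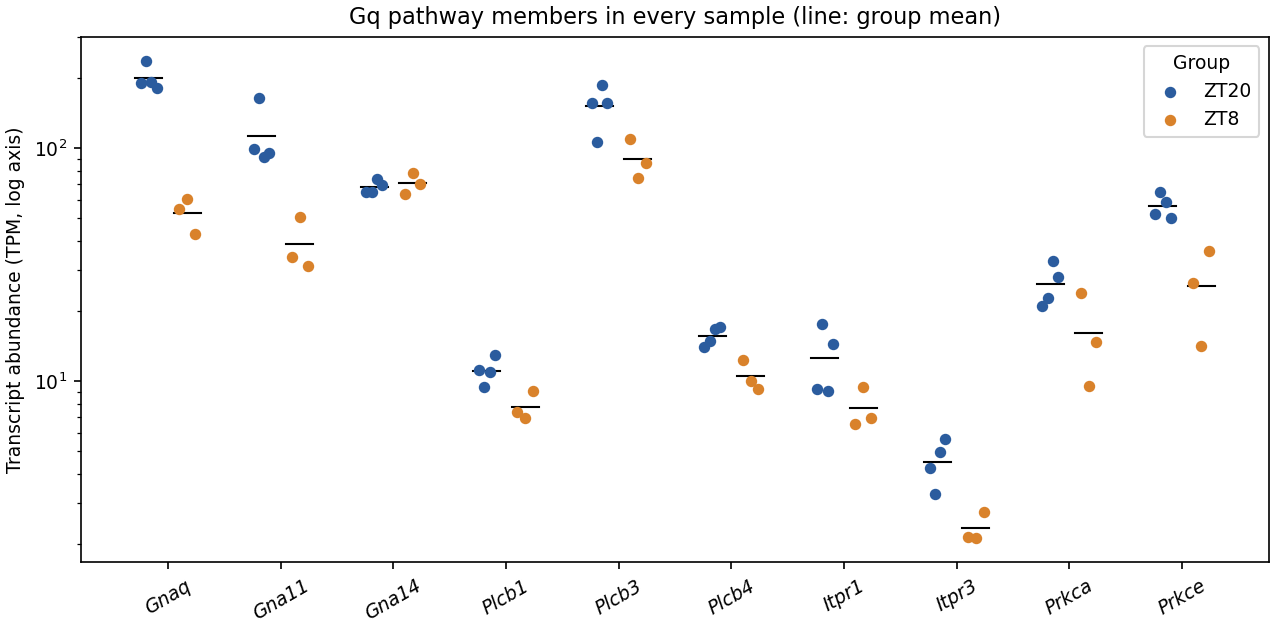
TPM (vertical axis, log scale) of the 10 members in the 4 ZT20 and 3 ZT8 samples, each point a sample and each line a group mean. Gnaq and Gna11 show the widest gaps between the groups, and the values of Gna14 coincide.

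Taking the 10 members as a list, 9 had a positive difference, 6 did not overlap between the groups (6 higher and 0 lower at ZT20), and the median log2 difference was 0.72. Over all 14800 tested genes, those averaging 1 TPM or more, 66.4% had a positive difference, 24.5% did not overlap and were higher at ZT20 (8.72% lower), and the median was 0.23. As a description only, the limma fit across all tested genes (Benjamini-Hochberg adjusted p-value under 0.05) counted 4 of the 10 as higher and 0 as lower at ZT20, beside 12.8% and 3.61% of all tested genes. In other fits, given with the share of all tested genes called in either direction, that count was 1 with a length and GC correction (8.84% of all genes), 2 with no filter (3.69%), 2 with a replicate block (7.93%) and 6 with array weights (26.3%). It was 0, as were the calls among all genes, with the neuronal marker score as covariate or without ZT20 replicates 3 and 4, and 2 without ZT20 replicate 1 (7.67%), 3 (4.90%) or 4 (5.79%), and 3 to 5 without any other 1 replicate. Since the contrast chose the list, nothing is read from these counts.

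Over all tested genes the differences were larger for longer transcripts, and most members are long. When the tested genes were ordered by longest transcript in GENCODE M21 and divided into 10 equal bins, the median log2 difference was 0.24 in the bin that holds Gna11 (3414 nt) and Gna14 (3290 nt). It was 0.56 in the bin of Gnaq (5644 nt), Plcb4 and Prkce, and 0.69 in the longest bin, which holds Plcb1, Itpr1, Itpr3 and Prkca. Gna11 and Gna14, of similar length, thus lay on either side of their bin's median, at 1.51 and −0.05. Plcb1, Plcb4 and Itpr1 lay below the median of their bin, and Gnaq and Gna11 lay farther above theirs than the other members did.

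**Figure D3:**
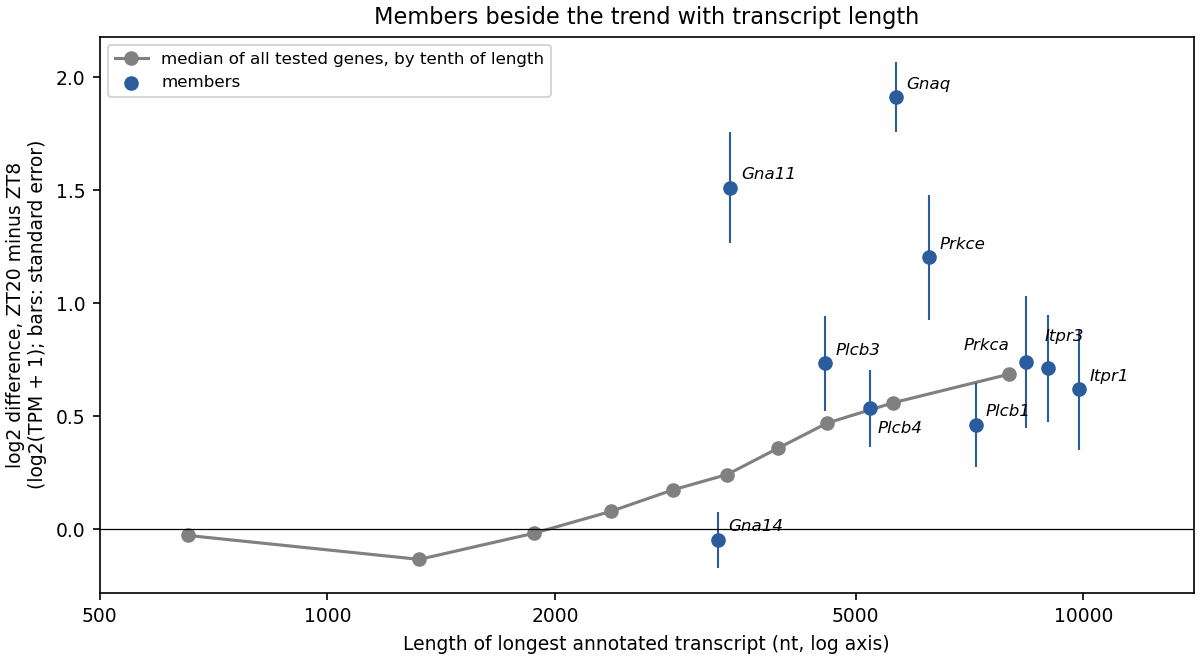
Log2 difference, ZT20 minus ZT8, of each member (vertical axis, bars are standard errors) against the length of its longest annotated transcript (horizontal axis, nt, log scale), beside the median of all tested genes in 10 equal bins by length. Gnaq and Gna11 lie above the line of medians, the 4 longest members lie near or below it, and Gna14 lies below it.

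After removal of the per-sample trend with GC content and length, the log2 difference was 1.38 for Gnaq (standard error 0.17), 1.14 for Gna11 (standard error 0.34) and 0.60 for Prkce (standard error 0.26). Plcb3 was left at 0.21, Plcb4 at 0.08 and Prkca at 0.07, and the signs of Plcb1 (−0.14), Itpr1 (−0.12) and Itpr3 (−0.09) turned. The median of all genes was then −0.01. Scaling by median ratios gave 1.68 for Gnaq and −0.28 for Gna14, with the median of all genes at 0.03. Without ZT20 replicates 3 and 4, which had almost no Y-linked transcripts, Gnaq differed by 2.01 and Gna11 by 1.73, and without ZT20 replicate 2, which had both Xist and Y-linked transcripts, by 1.83 and 1.32. Gnaq had the largest difference of the members in all 19 alternatives. Gna11 had the next in all but the fit without ZT8 replicate 3, where it lay at 1.38, below Prkce at 1.49. Quantile normalization left Plcb1 at 0.14, Plcb4 at 0.23, Itpr1 at 0.29, Itpr3 at 0.41 and Prkca at 0.49. With the neuronal marker score as covariate Itpr1 was at 1.56 and Plcb4 at 0.81, while Plcb3 was at 0.44 and Prkce at 0.56, with wider standard errors.

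**Figure D4:**
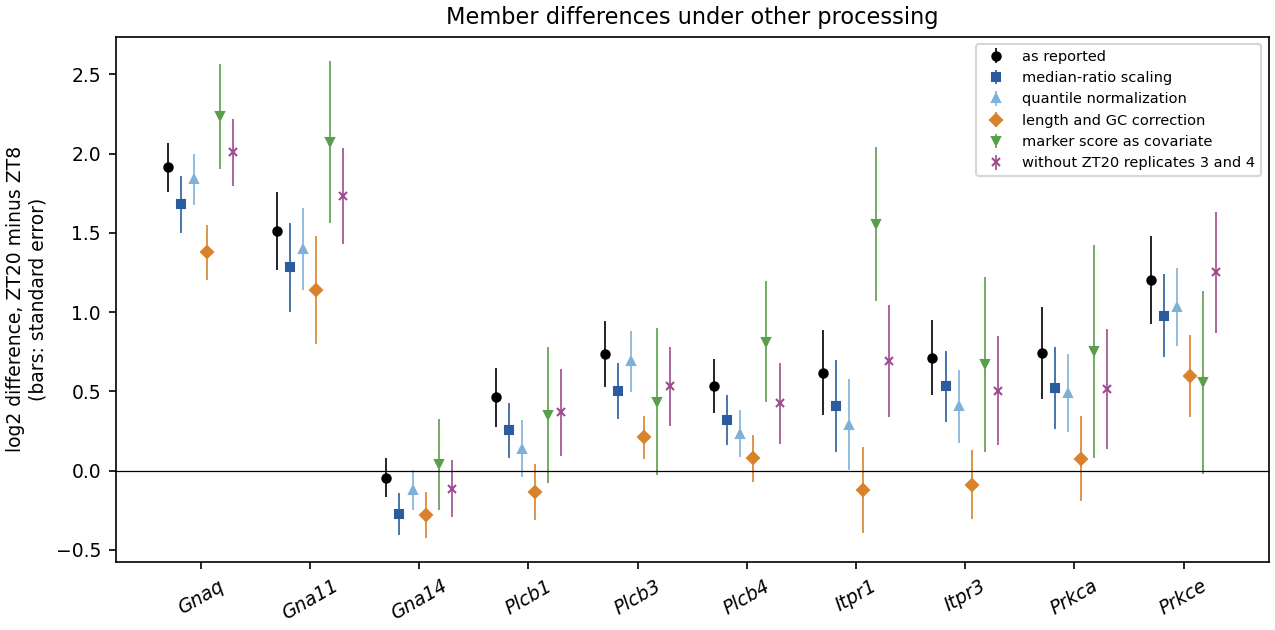
Log2 difference, ZT20 minus ZT8, of the 10 members (vertical axis, bars are standard errors) as reported and under 5 other treatments of the data. Gnaq and Gna11 stay above 1 in all 6, and Plcb1, Itpr1 and Itpr3 lie below 0 with the length and GC correction.

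The other genes of the pathway were taken from 10 lists by textbook role, 195 genes in all, of which 161 were tested, and their differences are on the log2 scale. In the same limma fit, 33 of the 161 were called higher at ZT20 and 4 lower (23.0%), beside 16.4% of all tested genes. Their median log2 difference was 0.43, beside 0.23 over all tested genes. After median-ratio scaling 16 of the listed genes were higher and 7 lower, beside 1128 and 1160 of all tested genes (15.5%), and after quantile normalization 20 and 6, beside 1023 and 814 (12.4%). The fits without ZT20 replicate 1, 3 or 4 called 19, 11 and 14 of the listed genes, beside 7.67%, 4.90% and 5.79% of all tested genes. The shares below are to be read beside the 16.4% of all tested genes called in the fit reported, and the 8.84% called with the length and GC correction. With the length and GC correction 8 were higher and 7 lower (15 of 161), beside 8.84% of all tested genes, and 12 genes were called in both fits. With the neuronal marker score as covariate limma called 0 genes, in the lists and among all tested genes, and without ZT20 replicates 3 and 4 it also called 0. In these fits 16 and 38 of the listed genes, and 1317 and 2378 of all tested genes, had an unadjusted p-value under 0.05. The neuronal score itself did not overlap between the groups (9.95 to 10.08 at ZT20, 9.25 to 9.77 at ZT8). The covariate fit can therefore hardly tell score from group, and its standard error for Gnaq was 0.33, beside 0.15 without the covariate. These 2 fits ended the call of each gene named below as having risen or fallen, where they gave a value, and are not repeated.

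Of 10 other alpha subunits, 3 rose and 7 did not pass (30% called), and with the length and GC correction 1 was higher. Gna12 was at 11.5 ± 1.64 TPM at ZT20 (SD, n = 4), against 4.11 ± 1.68 TPM at ZT8 (SD, n = 3), 1.35 apart on the log2 scale (limma adjusted p = 0.0158). Gnao1, the Go subunit abundant in neurons, differed by 0.85 (limma adjusted p = 0.0171). With the length and GC correction Gna12 was at 0.96 (limma adjusted p = 0.0260) and Gnao1 no longer passed (limma adjusted p = 0.208). Gna12 did not pass when the replicate block was added to the correction (limma adjusted p = 0.0791). Neither gene passed without ZT20 replicate 3 (limma adjusted p = 0.0569 and 0.0585), nor Gnao1 without ZT20 replicate 4 (limma adjusted p = 0.0541) or with no filter (limma adjusted p = 0.0504). The ZT8 replicates had 4.86, 0.0390 and 1.02 TPM of Gna15, a spread that took in all ZT20 values.

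Of 15 beta and gamma subunits, 2 rose and 2 fell (26.7% called), and with the length and GC correction 0 were higher and 3 lower. Gnb1, the most abundant beta subunit, was at 1401, 2451, 1179 and 1120 TPM in the ZT20 replicates against 465, 825 and 433 TPM in ZT8 replicates 1 to 3, a difference of 1.41 ± 0.31 (standard error) in log2 units (limma adjusted p = 0.0211). As with Gnaq and Gna11, replicate 2 was the highest sample of each group. Gng2 differed by 0.60 (limma adjusted p = 0.0354), while the short transcripts of Gng10 and Gng11 fell, by 1.27 and 0.75 on the log2 scale (limma adjusted p = 0.0111 and 0.0287). Gng10 passed in 17 of 19 alternatives. Gng11 passed with the length and GC correction but in only 10 of 19 alternatives, and not without ZT20 replicate 1, 3 or 4 or ZT8 replicate 1 (limma adjusted p = 0.0679 to 0.0899) or with the replicate block (limma adjusted p = 0.124). With the length and GC correction Gnb1 (1.20, limma adjusted p = 0.0714) and Gng2 (0.32, limma adjusted p = 0.181) did not pass. Leaving out ZT20 replicate 1 or ZT8 replicate 1 or 3 also ended the call of Gnb1 (limma adjusted p = 0.0509 to 0.0628), and leaving out ZT20 replicate 1, 3 or 4 or ZT8 replicate 1 that of Gng2 (limma adjusted p = 0.0604 to 0.104). Gnb1 did not pass with median-ratio scaling (limma adjusted p = 0.0573) or no filter (0.07). Gng2 did not pass with median-ratio scaling (limma adjusted p = 0.101), the replicate block (0.0637), no intensity trend (0.0638) or no filter (0.0792).

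Of 50 receptors that couple mainly to Gq, 30 were tested, 5 were called higher and 25 did not pass (16.7% called), and with the length and GC correction 2 were higher and 1 lower. Among the 5, Ptafr, named after its values were seen, averaged 1.97 TPM at ZT20 and 0.379 TPM at ZT8 and so reached the filter of 1 TPM only through the ZT20 samples. Cysltr2, a leukotriene receptor of itch neurons, was at 7.92 ± 1.22 TPM at ZT20 (SD, n = 4), against 2.25 ± 2.09 TPM at ZT8 (SD, n = 3), 1.66 apart on the log2 scale (limma adjusted p = 0.0312). Htr2a, a serotonin receptor, was at 6.59 ± 0.773 TPM (SD, n = 4) in the ZT20 group and 2.11 ± 0.771 TPM (SD, n = 3) in the ZT8 group, 1.31 apart on the log2 scale (limma adjusted p = 0.0115). Both passed with the length and GC correction, at 1.69 and 0.85 (limma adjusted p = 0.0417 and 0.0490). Cysltr2 lost its call in 11 of 19 alternatives, among them a pseudocount of 0.1 (limma adjusted p = 0.0510), no filter (0.0888), the replicate block (0.0517) and the omission of any ZT20 replicate or of ZT8 replicate 3 (0.0604 to 0.0910). Htr2a lost its call with the replicate block (limma adjusted p = 0.0633, and 0.176 with the correction added). Mrgprd, the beta-alanine receptor of nonpeptidergic nociceptors, was at 90.9 ± 18.5 TPM (SD, n = 4) in the ZT20 group and 59.1 ± 9.96 TPM (SD, n = 3) in the ZT8 group and did not pass (limma adjusted p = 0.0599), although it did with array weights (0.0398). Bdkrb2, the constitutive bradykinin receptor, averaged 3.11 TPM at ZT20 with overlapping groups (ZT8 replicates at 3.12, 0 and 1.38 TPM) and passed only without ZT8 replicate 1 (limma adjusted p = 0.0446), and the protease receptor F2rl1 was too low to be tested, at 0.512 and 0.241 TPM.

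Of 19 tested regulators, 4 rose, 1 fell and 14 did not pass (26.3% called), and with the length and GC correction 2 were higher and 1 lower. Arrb1, which encodes beta-arrestin 1 and uncouples active receptors, was at 57.6 ± 11.3 TPM at ZT20 (SD, n = 4), against 20.7 ± 4.61 TPM at ZT8 (SD, n = 3), 1.43 apart on the log2 scale (limma adjusted p = 0.00657). Of the RGS proteins, which speed up GTP hydrolysis on alpha subunits, Rgs20 differed by 1.05 (limma adjusted p = 0.0133), and Rgs10 fell by 0.81 on the log2 scale (limma adjusted p = 0.00988). All 3 passed with the length and GC correction, Arrb1 did not when the replicate block was added (0.70, limma adjusted p = 0.0653), and Rgs20 did not with quantile normalization (limma adjusted p = 0.0550) or the replicate block (limma adjusted p = 0.0691). Rgs2, a selective brake on Gq, averaged 10.96 and 8.71 TPM with overlapping groups (limma adjusted p = 0.443). Rgs4, also active on Gq, averaged 1039 and 963 TPM (limma adjusted p = 0.610), and Ric8a, a chaperone for Gq subunits, averaged 84.9 and 96.6 TPM (limma adjusted p = 0.320).

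The enzymes and carriers that supply PIP2, the substrate of phospholipase C, had 7 of 18 members that rose and 0 that fell (38.9% called, beside 16.4% of all tested genes). In 13 of the 18 the groups did not overlap, with ZT20 higher, beside 24.5% of all tested genes. With the length and GC correction 1 of the 18 was called, beside 8.84% of all tested genes. Pitpnc1, a phosphatidylinositol transfer protein, was at 181, 286, 184 and 177 TPM in the ZT20 replicates against 57.8, 61.2 and 50.7 TPM in ZT8 replicates 1 to 3, near the level of Gnaq in each sample. Its log2 difference was 1.83 (limma adjusted p = 0.00205), and 1.25 with the length and GC correction (limma adjusted p = 0.0152). Pi4k2a, a phosphatidylinositol 4-kinase, differed by 1.31 (limma adjusted p = 0.00361), and by 0.86 with that correction (limma adjusted p = 0.0507).

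Of 12 other phospholipase C genes tested, Plcxd2 rose by 1.00 (limma adjusted p = 0.0212). It did not pass with median-ratio scaling (limma adjusted p = 0.0533), quantile normalization (0.0838), the replicate block (0.0697), the length and GC correction (0.247), no filter (0.0514), or without ZT20 replicate 3 or 4 or ZT8 replicate 3 (0.0587 to 0.0731). Plcd3, counted among the 33 genes called higher, was at 1.63, 1.92, 2.15 and 1.87 TPM at ZT20 and at 0.322, 0 and 0.518 TPM at ZT8. It reached the filter of 1 TPM only through the ZT20 samples, so its call is not read, and the size of its difference was 1.19, or 2.74 with a pseudocount of 0.1. Neither Plcxd2 nor Plcd3 passed with the length and GC correction. Of 19 genes around IP3 and calcium stores, 0 rose and 1 fell in the limma fit (5.26% called), and these counts were also 0 and 1 with the length and GC correction. An unadjusted limma p-value under 0.05 was found for 6 of the 19, beside 5122 of all 14800 tested genes. The gene that fell, Inpp1, which removes a phosphate from inositol bisphosphate, fell by 0.61 on the log2 scale (limma adjusted p = 0.0386), and by 1.09 with the correction (limma adjusted p = 0.0119). It lost its call in 9 of 19 alternatives, among them the omission of any 1 ZT20 replicate (limma adjusted p = 0.0629 at the least), the replicate block (0.0698), no intensity trend (0.0639) and no filter (0.0822). Of 11 diacylglycerol kinases and lipases, 2 rose (18.2% called): Dgkh by 0.91 and Dgkz by 0.78 (limma adjusted p = 0.0125 and 0.0456), and neither passed with the correction. Dgkz passed in 3 of 19 alternatives, and of the fits without 1 replicate only in that without ZT8 replicate 2.

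Of 11 other protein kinase C genes and substrates tested, 2 rose (18.2% called), and with the length and GC correction 1 was higher. Prkcd, an isoform that needs no calcium and the most abundant kinase C at ZT20, was at 166 ± 20.5 TPM at ZT20 (SD, n = 4), against 98.3 ± 26.1 TPM at ZT8 (SD, n = 3), 0.77 apart on the log2 scale (limma adjusted p = 0.0273). The length and GC correction left it past the threshold, at 0.57 (limma adjusted p = 0.0359), but the call was lost in 9 of 19 alternatives. Among these were median-ratio scaling (limma adjusted p = 0.0517), no filter (0.0712), the correction with the replicate block (0.0728) and the omission of ZT20 replicate 1, 3 or 4 or ZT8 replicate 3 (0.0664 to 0.0830). Marcks, a substrate that shields PIP2 until kinase C phosphorylates it, averaged 25.6 and 9.14 TPM and differed by 1.5 on the log2 scale (limma adjusted p = 0.0154), and by 1.18 with the correction (limma adjusted p = 0.0585). It did not pass without ZT20 replicate 3 or 4 (limma adjusted p = 0.0501 and 0.0519). Prkcb averaged 36.8 and 24.2 TPM without overlap and did not pass (limma adjusted p = 0.0639), although it did with array weights (0.0254) and without ZT8 replicate 2 (0.0355).

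Of 16 other effectors tested, 6 rose and 0 fell (37.5% called), and with the length and GC correction 1 was higher and 1 lower. Trio, a guanine nucleotide exchange factor that Gq can activate, differed by 1.30 (limma adjusted p = 0.0184). Ppp3ca, a catalytic subunit of the calcium-dependent phosphatase calcineurin, was at 455 ± 20.1 TPM at ZT20 (SD, n = 4), against 193 ± 28.9 TPM at ZT8 (SD, n = 3), 1.24 apart on the log2 scale (limma adjusted p = 0.00205). With the length and GC correction Ppp3ca still passed, 0.81 (limma adjusted p = 0.0167) and Trio did not (0.49, limma adjusted p = 0.259), nor did Trio without ZT20 replicate 1 or 3 (limma adjusted p = 0.0540 and 0.0631), with the replicate block (0.0505) or with no filter (0.0515).

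**Figure D5:**
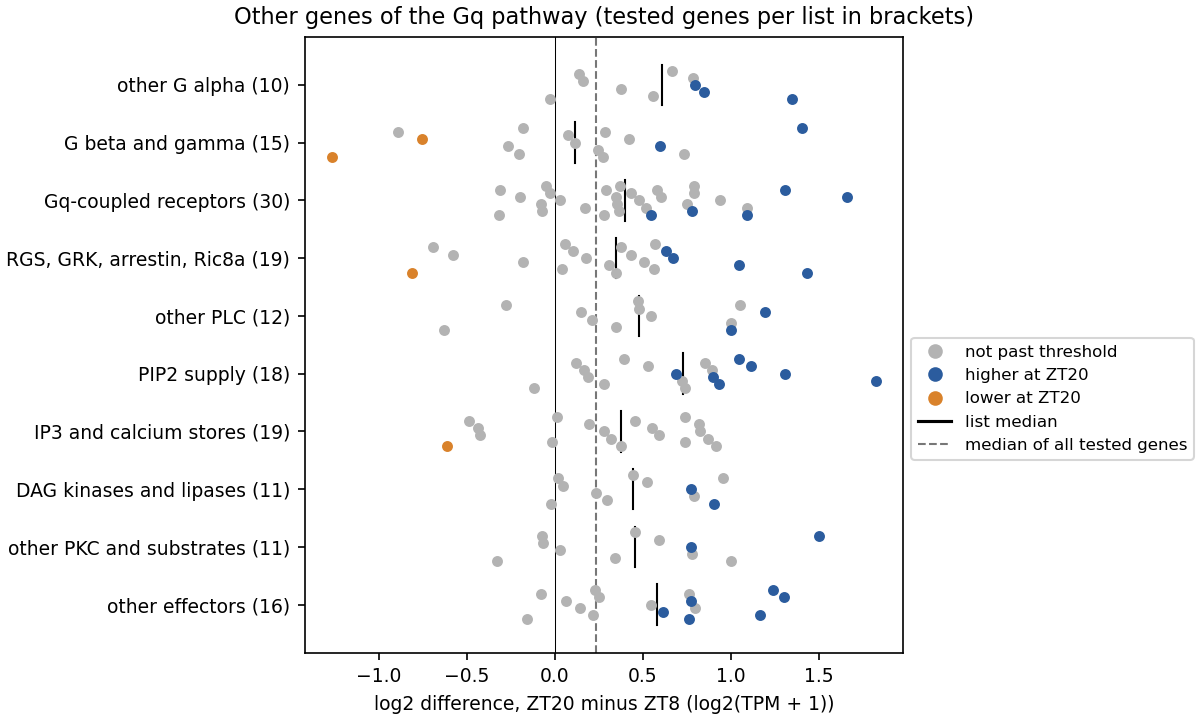
Log2 difference, ZT20 minus ZT8 (horizontal axis), of each tested gene of the 10 pathway lists (rows, number of tested genes in brackets), coloured by whether it was called higher or lower at ZT20. In the PIP2 supply list 7 of 18 genes were called higher, and the only genes called lower are in the lists of beta and gamma subunits, regulators, and IP3 and calcium stores.

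The genes whose pattern over the 7 samples was most like that of Gnaq were named by Pearson's r of log2(TPM + 1) among 10267 genes averaging 5 TPM or more. They were Taok1 (r = 0.999), Fam120a (0.998), Sptbn1 (0.996), Kif2a (0.996) and Gm49521 (0.996). In all 5 replicate 2 was the highest sample of its group, as for Gnaq. The most opposed were Prdx1 (r = −0.987), Echs1, Cacybp, Cgrrf1 and the immunoglobulin segment Ighv1-59 (r = −0.985). An r of at least 0.9 was found for 770 of the genes compared (7.50%), so the pattern was common, and the points share the group difference and each library's scaling.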

How the data were processed

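RNA from 7 samples was sequenced from libraries made with a low-input kit, per the labels' protocols. The authors deposited 1 table of TPM with a column per sample (all 7 were used). The submitters' processing notes name Salmon 1.6.0, Trim Galore 0.6.6, FastQC 0.11.9, DESeq2 1.34.0 and the build GRCm39, with no role or order. The annotation release and strand setting are not given in the sources used here, so reads of overlapping genes are uncertain. In GENCODE M21 all members but Gna11 overlap at least 1 other gene: Gnaq 4 (processed pseudogenes and a miRNA), and Plcb3 the protein-coding Ppp1r14b on the other strand. TPM sums to the same total in each sample, so depth and counting error are unknown.

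Values were analysed as log2(TPM + 1), on which folds of low genes are understated. The 14800 genes averaging 1 TPM or more were fitted with limma 3.58.1 (R 4.3.3, eBayes with an intensity trend, no covariates, two-sided, Benjamini-Hochberg over all tested genes, called under 0.05), as checked on simulated data. Marker scores were compared by exact permutation over 35 splits. Transcript length and GC content came from GENCODE M21 (99.6% of tested genes), with a loess span of 0.3, and promoters from RefSeq GRCm38.p6, a build other than that of the table. Besides the members, the text names the up to 2 largest positive and negative differences among called genes of each list, 12 listed genes whatever their result (1 is not reported here), and the 5 genes most and least like Gnaq. Members, lists and tests were chosen with earlier results of these data known. Alternatives changed the pseudocount, filter, scaling, covariates, weights and libraries. Tables and figures were made with pandas 2.3.3 and matplotlib 3.10.9 in Python 3.11.15.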

Additional observations from a re-analysis of the deposited data

Results flagged for a closer look

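The 53 results screened share the same 4 ZT20 samples and are not independent, so the count given for chance is a rough guide only. Within ZT20, 1 sample lay far from the other 3 in 5 of 53 results screened, where chance gives about 2.65, as judged by its gap to the nearest sample as a share of the group's range. ZT20 replicate 2 stood high in 3 of them. It had 165 TPM of Gna11, where the remaining ZT20 samples had 92.0 to 99.6, a gap of 0.896 of the range. For Pitpnc1 it reached 286 TPM beside 177 to 184, a gap of 0.934, and for Pi4k2a 58.4 TPM beside 40.8 to 43.2, a gap of 0.865. ZT20 replicate 4 stood low in the other two, with 28.9 TPM of Prkcb beside 38.6 to 40.3 (0.846) and 9.15 TPM of Trio beside 11.2 to 11.5 (0.891). Without ZT20 replicate 2 the log2 difference of Gna11 was 1.32, and that of Gnaq was 1.83.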

How the results depend on the processing

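The log2 difference of Gnaq was positive in all 19 alternatives. It was 1.68 with median-ratio scaling, 1.38 with the length and GC correction, 1.45 with that correction and the replicate block, and 2.24 with the marker covariate, and 1.78 to 2.02 when any 1 replicate was left out. Gna14 turned to 0.039, 0.070 and 0.031 (marker covariate, array weights, without ZT8 replicate 2). With the length and GC correction Plcb1, Itpr1 and Itpr3 turned to −0.14, −0.12 and −0.090, and with the block added to −0.17, −0.17 and −0.16. Counts of called genes, all tested and then of the pathway lists, moved as follows. No filter gave 1178 (978 higher, 200 lower) and 18 (16 and 2). Median-ratio scaling gave 1128 higher and 1160 lower (49.3% higher), and 23 (16 and 7). Quantile normalization gave 1023 higher and 814 lower, and 20 higher in the lists. The length and GC correction gave 1304 (528 higher) and 15 (8 and 7). The replicate block, which leaves ZT20 replicate 4 without a partner, gave 1174 (891 and 283) and 17 (15 and 2), and with the correction 520 (231 and 289) and 9 (4 higher). Deviations of same-numbered samples from their group means correlated at −0.01, 0.15 and 0.08, which cannot settle whether these samples belong together. The marker covariate and the fit without ZT20 replicates 3 and 4 gave 0 in limma in each direction, with 1317 and 2378 genes at an unadjusted p-value under 0.05. Without the intensity trend 332 were lower, and array weights gave 3899 (2982 and 917). Leaving out 1 replicate gave 723 to 3047 (620 to 2375 higher, 103 to 672 lower) and 11 to 43 in the lists (9 to 39 and 2 to 4), lowest without ZT20 replicate 3. The cause of these shifts was not tested. The sensory neuron score differed by 0.25 with median-ratio scaling (exact p = 0.0571) and by 0.33 to 0.59 without 1 replicate, and the nociceptor score by 0.41 to 0.51, where 6 samples allow no exact p under 0.05. The nociceptor score was 0.25 with median-ratio scaling and 0.24 with the length and GC correction, and the sensory neuron score 0.23 with that correction (exact p = 0.0286 in each). Scores that did not pass changed sign: large-diameter neurons to −0.14, −0.039 and −0.27 (median-ratio, quantile, length and GC; −0.24 to 0.28 without 1 replicate), satellite glia to 0.0084 (pseudocount 0.1), and Schwann cells (−0.22 to 0.011), macrophages (−0.49 to 0.034) and fibroblasts (−0.31 to 0.066) without 1 replicate. Depth is unknown, which limits Itpr3, Plcd3 and other low genes most.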
